A study of Mus musculus with 3 samples.

Results

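The neutrophil genes described here are 10 genes, S100a8, S100a9, Ly6g, Retnlg, Mmp9, Ngp, Camp, Ltf, Csf3r and Cxcr2, which were found by name among the 27088 genes of the expression table. All 10 were present once and had counted reads in every library used. They were measured in B cells of mouse spleen, taken by fluorescence-activated cell sorting, so their transcripts were read in a preparation that was sorted for another cell type. In these libraries, S100a8 and S100a9 were 1.56-fold and 1.36-fold higher with the peptide SJMHE1 than with PBS, whereas Csf3r and Retnlg were 1.94-fold and 1.58-fold lower, and no gene of the 10 passed a 2-fold difference.

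The series holds Control, PBS and SJMHE1 groups of female BALB/c mice, listed as 13 weeks old, in a model of allergic rhinitis. Mice of the PBS and the SJMHE1 groups were both sensitized by intraperitoneal ovalbumin (OVA) with Al(OH)3 on days 0, 7 and 14, and both received OVA into the nose daily from day 21 through 27 and again from day 29 through 35. On days 0, 14 and 28 they were injected under the skin with PBS or with 10 µg of SJMHE1, a peptide from Schistosoma japonicum that was emulsified in incomplete Freund's adjuvant, and spleens were taken on day 36. RNA of 3 samples was mixed in each group, which gave 1 library per group, so the spread between mice is not known, and the peptide and its adjuvant cannot be told apart. The Control library is not analysed here.

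Neutrophils are short-lived granulocytes that are made in the bone marrow and are among the first cells to enter inflamed tissue. While they mature they fill several kinds of granules one after another, with the proteases of the primary granules first, then lactoferrin, cathelicidin and the neutrophilic granule protein, and then gelatinase. The granulocyte colony-stimulating factor receptor carries the signal for their production, and the chemokine receptor CXCR2 draws mature cells out of the marrow. The spleen holds neutrophils of its own beside its B cell follicles.

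Promoter sequences are shown for S100a8, S100a9, Csf3r and Retnlg, since these 4 genes mark the upper and lower ends of the range described here. Each sequence is the stretch before the RefSeq start on GRCm38.p6, up to 250 bases, ended where the gene begins in the GENCODE M21 annotation, and each is written 5′ to 3′ on the strand of its gene. S100a8 is given from chr3:90668821-90668977 (plus strand), S100a9 from chr3:90695722-90695971 (minus strand), Csf3r from chr4:126024409-126024549 (plus strand) and Retnlg from chr16:48872358-48872607 (plus strand). Capitals mark matches on either strand to a loose C/EBP motif, TTNNGNAA, and to a PU.1 motif, GAGGAA. The C/EBP family and PU.1 are transcription factors that granulocyte development needs.
S100a8: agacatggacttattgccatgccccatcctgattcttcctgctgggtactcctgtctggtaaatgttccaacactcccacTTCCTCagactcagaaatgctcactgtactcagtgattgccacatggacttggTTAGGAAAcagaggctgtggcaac
S100a9: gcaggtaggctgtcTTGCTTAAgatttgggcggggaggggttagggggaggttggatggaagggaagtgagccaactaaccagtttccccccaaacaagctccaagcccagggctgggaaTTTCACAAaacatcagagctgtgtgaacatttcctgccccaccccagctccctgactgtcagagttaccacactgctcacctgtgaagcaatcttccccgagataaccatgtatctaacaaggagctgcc
Csf3r: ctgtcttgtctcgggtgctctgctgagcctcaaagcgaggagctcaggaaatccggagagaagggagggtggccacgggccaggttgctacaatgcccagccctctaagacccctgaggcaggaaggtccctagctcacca
Retnlg: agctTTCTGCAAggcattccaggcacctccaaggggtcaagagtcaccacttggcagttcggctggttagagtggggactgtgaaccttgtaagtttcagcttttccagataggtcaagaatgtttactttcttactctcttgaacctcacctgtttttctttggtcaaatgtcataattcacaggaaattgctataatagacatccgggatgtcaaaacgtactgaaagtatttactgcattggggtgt

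RefSeq promoters were found for 9 of the 10 genes, Mmp9 having no entry. Over the whole window of 250 bases, the C/EBP letters were in 6 of these 9 genes, namely S100a8, S100a9, Ly6g, Retnlg, Ngp and Ltf, and in 36.8% of all 32851 promoters. The PU.1 letters were in 5 of the 9, namely S100a8, Ly6g, Ltf, Csf3r and Cxcr2, and in 23.3% of all promoters. Matches to the 2 motifs can share bases, since the last letters of both can coincide. S100a8 held both motifs, with PU.1 matches 170 and 36 bases before its RefSeq start and a C/EBP match 117 bases before it. The PU.1 match at 36 bases is not printed, being in the 93 bases of the window inside the annotated gene. S100a9 had 2 C/EBP matches, Retnlg had 1, and Csf3r had 1 PU.1 match, 86 bases before its RefSeq start. That match is not printed either, being in the 109 bases of the Csf3r window inside the annotated gene. A match is a match of letters and not a measured site.

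The libraries held 48267168 counted reads for PBS and 51280237 for SJMHE1. The counts of the 10 genes ran from 197 (Ly6g) to 7059 (Ngp) in the PBS library and from 180 (Ly6g) to 8083 (S100a9) in the SJMHE1 library. Together the 10 genes took 0.055% of all counts with PBS and 0.0553% with SJMHE1. Levels are given below as FPKM, the fragments per kilobase of a gene scaled to the size of the library, as the authors deposited them, and differences as the log2 ratio of FPKM, SJMHE1 to PBS. Each ratio carries an exact 95% interval from its counts (Clopper-Pearson), which covers counting error alone. With 1 library per group no test over replicates was possible and no p-value is given.

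The calcium-binding proteins S100a8 and S100a9 form the heterodimer calprotectin, which is abundant in the neutrophil cytosol and binds zinc and manganese. S100a8 (chromosome 3, 90668978 to 90670035, plus strand) had an FPKM of 73.5 with PBS, from 2803 counts, and of 115.0 with SJMHE1, from 4637 counts. Its log2 ratio was 0.64 (0.58 to 0.71), the highest of the 10 genes. S100a9 (chromosome 3, 90692632 to 90695721, minus strand) had an FPKM of 196 with PBS, from 5617 counts, and of 266 with SJMHE1, from 8083 counts, a log2 ratio of 0.44 (0.39 to 0.49).

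Both S100 genes were higher in the SJMHE1 library by more than counting error, and they lie 22.6 kb apart on opposite strands. S100a9 exceeded S100a8 in FPKM 2.67-fold with PBS and 2.32-fold with SJMHE1. The exons of all S100a8 transcripts joined together are 139% of its longest transcript, against 101% for S100a9, and the deposited FPKM follows the joined length. Per kilobase of the longest transcript the excess of S100a9 counts was 1.92-fold with PBS and 1.68-fold with SJMHE1, so the order of the pair was the same by either length while its size was not.

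Ngp, Camp and Ltf encode proteins of the later, specific granules, namely the neutrophilic granule protein, the cathelicidin antimicrobial peptide, and lactoferrin, which binds iron. Ngp (chromosome 9, 110419747 to 110423012, plus strand) had an FPKM of 105 with PBS (7059 counts) and of 84.3 with SJMHE1 (5986 counts), a log2 ratio of -0.32 (-0.37 to -0.27). Camp (chromosome 9, 109847379 to 109849617, minus strand) had an FPKM of 19.6 with PBS (815 counts) and of 16.1 with SJMHE1 (710 counts), a log2 ratio of -0.28 (-0.43 to -0.13). Ltf (chromosome 9, 111019271 to 111042767, plus strand) had an FPKM of 23.9 with PBS (4532 counts) and of 24.2 with SJMHE1 (4851 counts), a log2 ratio of 0.02 (-0.04 to 0.07).

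Ngp and Camp were thus lower with SJMHE1 by more than counting error and Ltf was not separated from equality by its counts. All 3 lie on chromosome 9, with 570.1 kb between Camp and Ngp and 596.3 kb between Ngp and Ltf. The FPKM of Ngp was 5.38 times that of Camp with PBS and 5.23 times with SJMHE1, and it was 4.4 times that of Ltf with PBS and 3.48 times with SJMHE1.

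Mmp9 encodes gelatinase B, a matrix metalloproteinase stored in the gelatinase granules, and Retnlg encodes resistin-like gamma, a secreted protein of the resistin family. Mmp9 (chromosome 2, 164940780 to 164955850, plus strand) had an FPKM of 4.63 with PBS (901 counts) and of 5.34 with SJMHE1 (1100 counts), a log2 ratio of 0.21 (0.08 to 0.33). Retnlg (chromosome 16, 48872621 to 48874496, plus strand) had an FPKM of 18.7 with PBS (610 counts) and of 11.8 with SJMHE1 (409 counts), a log2 ratio of -0.66 (-0.85 to -0.48). The secreted products Mmp9 and Retnlg therefore lay on opposite sides of equality, each by more than counting error.

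**Figure D1:**
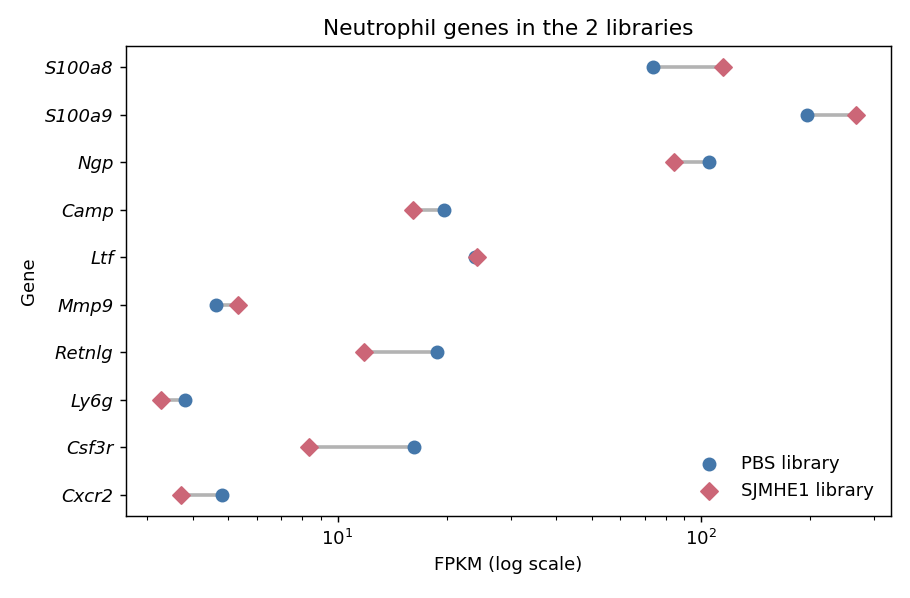
FPKM on a log axis of each of the 10 neutrophil genes in the PBS library (circles) and the SJMHE1 library (diamonds), 1 library each, with a grey line joining the pair. S100a9 is highest in both libraries, at 196 and 266, S100a8 and S100a9 have the diamond to the right, and Csf3r and Retnlg show the widest steps to the left.

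Csf3r is the receptor for granulocyte colony-stimulating factor, Cxcr2 the receptor for CXC chemokines such as CXCL1 and CXCL2, and Ly6g the GPI-anchored surface protein that antibodies against mouse neutrophils recognise. Csf3r (chromosome 4, 126024550 to 126044440, plus strand) had an FPKM of 16.2 with PBS (3218 counts) and of 8.37 with SJMHE1 (1757 counts). Its log2 ratio of -0.96 (-1.04 to -0.87) was the lowest of the 10 genes, and its interval reached past a 2-fold difference. Cxcr2 (chromosome 1, 74153989 to 74161246, plus strand) had an FPKM of 4.81 with PBS (805 counts) and of 3.71 with SJMHE1 (658 counts), a log2 ratio of -0.37 (-0.53 to -0.22).

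Both receptors were lower with SJMHE1 by more than counting error, and Csf3r was the more abundant of them, by 3.38-fold with PBS and 2.26-fold with SJMHE1. Ly6g (chromosome 15, 75155240 to 75159126, plus strand), the defining surface marker, had an FPKM of 3.80 with PBS (197 counts) and of 3.27 with SJMHE1 (180 counts). The log2 ratio of Ly6g was -0.22 (-0.52 to 0.08), so a difference was not detectable at its depth. Of windows of 50 bases along the transcripts, 10.7% for Csf3r, 6.68% for Cxcr2 and 0.448% for Ly6g also occur in transcripts of other genes, and 0% for the other 7 genes, and how such reads were counted is not given in the sources used here.

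**Figure D2:**
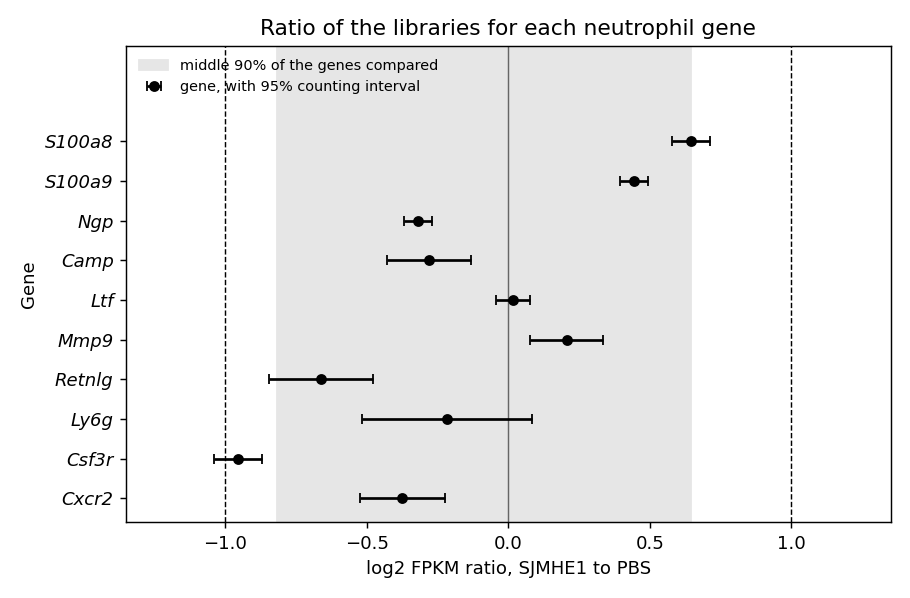
Log2 FPKM ratio, SJMHE1 to PBS, of each neutrophil gene (points) with its 95% counting interval (bars), where dashed lines mark a 2-fold difference and grey the middle 90% of all genes compared, from -0.82 to 0.64. S100a8, S100a9 and Mmp9 have intervals above 0, Ltf and Ly6g have intervals that include 0, and Csf3r alone lies outside the grey range.

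No gene of the 10 passed a 2-fold difference in either direction, where 6.0% of the 12433 genes compared did so, 2.43% being higher and 3.57% lower with SJMHE1. Genes were compared where the FPKM reached 1 in either library and was not 0 in the other, and all 10 neutrophil genes reached 1 in both libraries. Among the 11470 of these genes with 50 or more counts in each library, as all 10 had, 2.79% were past 2-fold. Ratios above 0 were found for 4 of the 10 genes, against 47.7% of all genes, and ratios below 0 for 6, against 51.9%. The counting interval lay above 0 for 3 of the 10 (31.0% of all genes) and below 0 for 5 (34.5% of all genes). An interval that leaves out 0 was thus found for 8 of the 10 and for 65.6% of all genes, so that it does not set these genes apart from the rest of the table.

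The median log2 ratio of the 10 genes was -0.25, and that of all genes compared was -0.01. Of the 10 ratios, 9 lay within the middle 90% of all genes, and 3.93% of all genes had a ratio as low as that of Csf3r or lower, while 5.01% had one as high as that of S100a8 or higher. The summed FPKM of the 10 genes was 467 with PBS and 539 with SJMHE1, a log2 ratio of 0.21, so the sum and the median differ in sign. The log2 ratio of the sum was 0.008 on counts scaled to their total and 0.0085 on FPKM without S100a9, so it rests on the FPKM scale and on that gene. S100a8 and S100a9 made up 57.8% of the sum with PBS and 70.8% with SJMHE1. Their own sum was 270 with PBS and 381 with SJMHE1, whereas the sum of the other 8 genes was 197 with PBS and 157 with SJMHE1, a log2 ratio of -0.33.

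**Figure D3:**
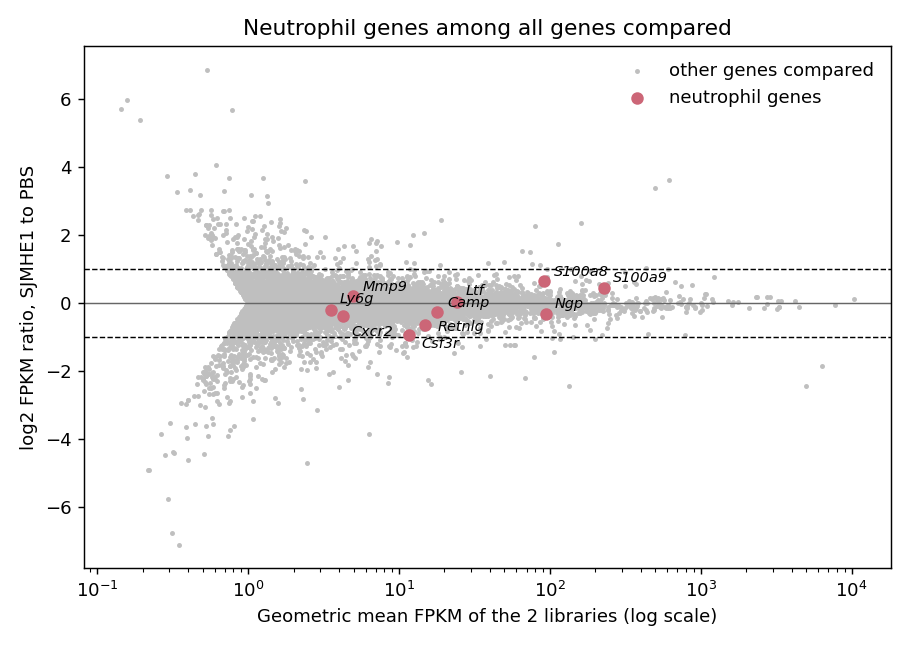
Log2 FPKM ratio, SJMHE1 to PBS, against the geometric mean FPKM of the libraries (log axis) for the 12433 genes compared (grey) and the 10 neutrophil genes (red), with dashed lines at a 2-fold difference. The neutrophil genes span low to high levels and all lie between the dashed lines, with Csf3r nearest to the lower one.

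The 10 genes did not keep their proportions to one another between the libraries. The FPKM of S100a8 was 4.53 times that of Csf3r with PBS and 13.7 times with SJMHE1, and it was 3.92 times that of Retnlg with PBS and 9.70 times with SJMHE1. S100a9 was 12.1 times Csf3r with PBS and 31.8 times with SJMHE1. From the lowest to the highest of the 10, the log2 ratios covered a range of 1.60. Fewer neutrophils in a preparation and less RNA of a gene per cell cannot be told apart in bulk libraries.

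By FPKM with PBS the order was S100a9, Ngp, S100a8, Ltf, Camp, Retnlg, Csf3r, Cxcr2, Mmp9 and Ly6g. The exact Poisson intervals of neighbours overlapped for Camp with Retnlg, for Cxcr2 with Mmp9 and for Mmp9 with Ly6g, so counting error alone leaves these places undecided. With SJMHE1, S100a8 stood above Ngp and Mmp9 above Cxcr2, the rest of the order was the same, and Cxcr2 with Ly6g was the pair of neighbours whose intervals overlapped. The highest of the 10 exceeded the lowest 51.6-fold with PBS and 81.5-fold with SJMHE1. Among all 27088 genes of the table, S100a9 ranked 193 by FPKM with PBS and 136 with SJMHE1, S100a8 moved from rank 540 to 339, and Csf3r from rank 2740 to 5050. The median FPKM of the 10 was 19.2 with PBS and 14.0 with SJMHE1, beside 177 and 214 for a list of 12 B cell markers, so S100a9 alone of the 10 lay above the B cell median in both libraries.

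The annotation in the table gives the products of 7 of the 10 genes to the extracellular space, a term carried by 1153 genes in all. Neutrophil chemotaxis, a term of 68 genes, was given to Csf3r, Cxcr2, S100a8 and S100a9, which were the genes with the 2 highest log2 ratios, the lowest and the third lowest. The term for an antimicrobial humoral response by antimicrobial peptides, with 57 genes, was given to Camp, Ltf and S100a9. The genes of neither of these last terms shared a direction.

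Other genes of neutrophils were taken from 6 lists of 59 genes, of which 55 were in the table under these names and 43 met the FPKM minimum. Of the 43, 5 were more than 2-fold higher and 4 more than 2-fold lower with SJMHE1, which is 20.9% against the 6.0% of all genes, and 34 lay within 2-fold. Their median log2 ratio was 0.01. Of the 9 genes past 2-fold, Ptafr (-1.01), G0s2 (1.03) and Fcgr4 (1.07) had log2 ratios close to the threshold of 1. Among the 9, Ctsg, Fcgr4, Ptafr and Cebpa met the FPKM minimum only in the library where they were higher. Where each library had to meet that minimum, 2.22% of all genes were past 2-fold. The matching share of these lists was not computed. These lists were chosen with earlier results of the data known, so the share of 20.9% is a description.

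Among the serine proteases and other proteins of the primary granules, which promyelocytes make, 4 of 6 genes met the minimum. Past 2-fold was 1 of them, against 6.0% of all genes compared. This was Ctsg, the gene of cathepsin G, with an FPKM of 0.27 with PBS (16 counts) and of 1.74 with SJMHE1 (105 counts), a log2 ratio of 2.69. Mpo, the gene of myeloperoxidase, was at 3.48 with PBS and 2.61 with SJMHE1, Elane (neutrophil elastase) at 1.51 and 2.53, and Prtn3 (proteinase 3) at 1.32 and 2.11. All of these levels were below the lowest of the 10 genes in the same library.

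Of 10 further granule and oxidase genes, 1 was more than 2-fold lower and none more than 2-fold higher (3.57% and 2.43% of all genes). Counting intervals lay above 0 for 4 and below 0 for 3, close to the shares of all genes, 31.0% and 34.5%. The 4 above 0 were Lcn2, Cd177, Olfm4 and Pglyrp1, named after their values were seen, with log2 ratios of 0.79, 0.57, 0.51 and 0.28. The 3 below 0 were Lyz2 (-1.25), Slpi (-0.41) and Chil3 (-0.42), the last also named after its values were seen. Lyz2, the lysozyme gene shared with monocytes and macrophages, had an FPKM of 88.8 with PBS and of 37.4 with SJMHE1, a log2 ratio of -1.25. Cybb, a subunit of the phagocyte NADPH oxidase that B cells also express, was at 70.1 with PBS and 71.2 with SJMHE1, and Slpi, a protease inhibitor, at 28.8 and 21.6.

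Of 18 genes for receptors and adhesion proteins, 15 met the minimum, 1 was higher and 2 were lower by more than 2-fold. Of all genes compared, 2.43% were higher and 3.57% lower by more than 2-fold. The Fc receptor gene Fcgr4 had an FPKM of 0.91 with PBS and of 1.91 with SJMHE1, whereas Trem3, an activating receptor of myeloid cells, fell from 2.76 to 1.10 and Ptafr, the receptor for platelet-activating factor, from 1.79 to 0.89. Cxcr4, the most abundant of this list, is also expressed by B cells and was at 183 with PBS and 163 with SJMHE1, and Csf2rb, the shared receptor chain for GM-CSF, IL-3 and IL-5, was at 6.86 and 5.83.

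Of 6 genes for transcription factors and extracellular traps, 5 met the minimum, and all 5 had counting intervals below 0 (34.5% of all genes did), with a median log2 ratio of -0.77. The interval of Spi1 only just left out 0, at -0.14 to -0.0028. Cebpa and Cebpe met the minimum only with PBS, where they were higher, as did Cebpd, named after its values were seen. The gene below the minimum, Padi4, whose enzyme acts in trap formation and which is named after its values were seen, had 91 counts with PBS and 164 with SJMHE1, a log2 ratio of 0.77 (0.39 to 1.16). Cebpa, which directs early granulocyte development, was past 2-fold, with an FPKM of 1.09 with PBS (158 counts) and of 0.26 with SJMHE1 (41 counts), a log2 ratio of -2.07. Spi1, the gene of PU.1, which B cells use as well, was at 22.8 with PBS and 21.7 with SJMHE1, Gfi1, a repressor that neutrophil development needs, at 3.11 and 1.83, and Cebpe, which specific granule genes need, at 1.22 and 0.82.

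Of 12 other transcripts listed for neutrophils, 8 were in the table and met the minimum. More than 2-fold higher were 3 of them, against 2.43% of all genes compared. Wfdc21 had an FPKM of 2.36 with PBS and of 5.93 with SJMHE1, Ifitm6 of 3.98 and 9.74, and G0s2, an inhibitor of fat breakdown, of 1.83 and 3.73. Cyp4f18, an enzyme that acts on leukotriene B4, was at 51.1 with PBS and 48.8 with SJMHE1, and Anxa1, the gene of annexin A1, at 14.5 and 15.7.

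Of 7 genes for ligands of Csf3r, Cxcr2 and Cxcr4, 1 met the minimum. This was Cxcl2, with an FPKM of 5.04 with PBS and of 5.22 with SJMHE1, a ratio of 1.04 (0.92 to 1.16). Csf3, the gene of granulocyte colony-stimulating factor, had 12 counts with PBS and 5 with SJMHE1, Cxcl1 had 23 and 14, and Cxcl5 had 0 in both libraries, where a count of 0 allows up to 3.

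**Figure D4:**
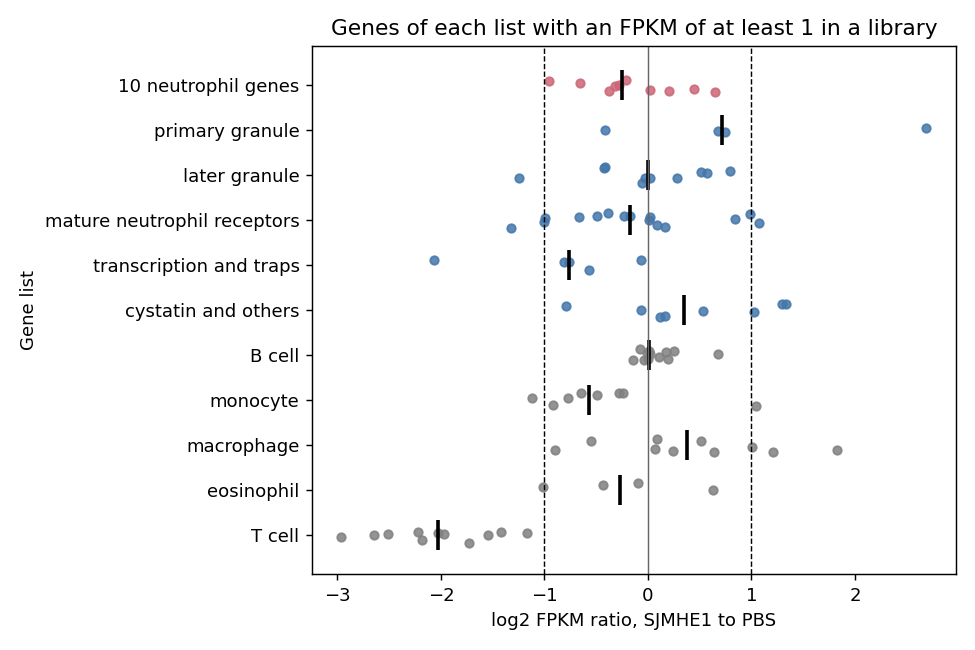
Log2 FPKM ratio, SJMHE1 to PBS, of each gene that met the FPKM minimum (points, spread vertically for legibility) and the median (black bar) for the 10 neutrophil genes, 5 other neutrophil lists and 5 lists of other cell types, with dashed lines at a 2-fold difference. The 10 neutrophil genes stay between the dashed lines around a median of -0.25. The B cell markers lie around a median of 0.01 and reach 0.68, and all 11 T cell markers lie beyond the lower dashed line. Of these T cell markers, Cd3e, Cd3d, Cd8a, Cd8b1, Cd28 and Il7r met the FPKM minimum only with PBS.

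The sort was checked against markers of the cells it could hold, each list given by its summed FPKM. The 12 B cell markers summed to 3351 with PBS and 3529 with SJMHE1, all within 2-fold, with Cd79a at 835 in both and Cd79b at 625 and 594. Cr2, named after its values were seen, differed most among them, at 136 and 218, a log2 ratio of 0.68 (0.67 to 0.69). Several other lists differed between the 2 libraries. Of all genes compared, 51.9% had ratios below 0, while 2.43% were more than 2-fold higher and 3.57% more than 2-fold lower with SJMHE1. Of 11 T cell markers past the minimum, 11 were more than 2-fold lower with SJMHE1, and the list of 12 summed to 35.9 and 9.91, with Tcf7 at 7.39 and 1.81 and Thy1 at 4.86 and 1.24. Of 8 monocyte markers past the minimum, 7 had ratios below 0, with Cd14 more than 2-fold higher (1.30 and 2.68) and Ace more than 2-fold lower (1.83 and 0.84), and the list of 10 summed to 212 and 140. The monocyte sum was carried by Nr4a1, which B cells also express, at 185 and 118, while Ly6c1 was at 9.51 and 8.07. Of 10 macrophage markers, 3 were more than 2-fold higher, namely C1qb (1.22 and 2.45), C1qc (0.95 and 2.19) and Cd5l (0.78 and 2.77), and the list of 14 summed to 35.2 and 35.1, with Cd68 at 12.6 and 6.77 and Hmox1 at 5.53 and 6.54. Of 4 eosinophil markers, 1 was more than 2-fold lower, Ear6 (1.13 and 0.56), and the list of 8 summed to 23.1 and 21.5, with Il5ra, which B cells also express, at 12.5 and 9.26 and Prg2 at 4.65 and 7.18. C1qc, Cd5l, Ace and Ear6 met the FPKM minimum only in the library where they were higher. So did Ccr2 of the monocyte list and the T cell markers Cd3e, Cd3d, Cd8a, Cd8b1, Cd28 and Il7r. These were named after their values were seen. The other T cell markers past the minimum met it in both libraries. The part of the cells of these lists in the values of the 10 neutrophil genes was not tested.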

How the data were processed

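RNA from sorted spleen B cells was sequenced after removal of rRNA, with the RNA of 3 samples mixed per group, so the series has 3 libraries and 1 per group. The authors deposited raw read counts for each gene, as integers. Beside them the authors gave FPKM, in which a count is divided by gene length and scaled to the library, with 2 decimals. The submitters' processing notes name bcl2fastq 2.0, HISAT2, StringTie, DESeq2, limma and mm10, and use of strand in counting is not given in the sources used here. The annotation columns gave names and terms. For 2 columns of per-sample values the name fits no sample label, so they were left out, and no comparison with Control was made.

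The 10 genes were selected by name. The genes, the gene lists and the measures were chosen with earlier results of these data known. The SJMHE1 to PBS ratio of FPKM was taken without a pseudocount, for genes whose FPKM reached 1 in either library and was not 0 in the other, and 2-fold was the threshold. With 1 library per group no test was run. Intervals are exact at the 95% level and cover counting error only. Reads are not independent molecules. Scripts were tested on simulated data. Alternatives were 4 other scales, centring on the median, pseudocounts of 0.1 and 1, other filters, 2 rules based on the counting interval, and leaving out genes. Python 3.11.15 with scipy 1.17.1 and pandas 2.3.3, and R 4.3.3 with edgeR 4.0.16 for TMM factors, were used.

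Besides the 10 genes, the text names the 3 most abundant genes of each other neutrophil list, those past 2-fold and those at 0 counts in both libraries, and the 2 most abundant genes of each list of another cell type, with those past 2-fold of the monocyte, macrophage and eosinophil lists. The values of 1 gene that this rule names are not reported here. Coordinates are those of the table on GRCm38, which for all 10 genes equal those of GENCODE M21, and no other annotated gene overlaps them.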

Additional observations from a re-analysis of the deposited data

How the results depend on the processing

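No paired analysis was possible because there is 1 library for each group and no test gives these values. All 10 neutrophil genes kept the sign of their ratio under every scale and pseudocount run, and of 70 single-gene values under 7 settings 66 stayed within the counting interval. None passed 2-fold under any other scale, filter or pseudocount, whereas 8 had a counting interval that leaves out 0 (65.6% of all genes). The number of all genes past 2-fold was 746 in the comparison reported, 246 with a pseudocount of 1, 3385 with no filter other than values above 0, 2835 with an FPKM of at least 0.1, 252 with at least 1 in both libraries, 260 among protein-coding genes and 291 when the whole interval had to pass. The median of the 10, -0.25, ran from -0.30 without S100a8 and S100a9 to -0.17 after rescaling FPKM to equal sums, over all settings run. The log2 ratio of the summed level, 0.21, was 0.008 on counts scaled to their total, 0.039 with TMM factors, 0.058 with median-of-ratios factors and 0.29 after rescaling FPKM to equal sums, which moved all genes by 0.08. Without S100a8 and S100a9 it reversed to -0.33, and leaving out 1 gene at a time it ran from 0.0085 without S100a9 to 0.33 without Ngp. Sums of counts weight long genes more than sums of FPKM do. Alternatives for Control were not run. Depth limits the value of Ly6g most, at 197 and 180 counts.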

Other observations

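Of 8 marker genes of basophils and mast cells, 2 met the FPKM minimum and both were more than 2-fold lower, namely Prss34, a basophil protease, at an FPKM of 2.38 with PBS and 0.11 with SJMHE1, and Cpa3, a mast cell carboxypeptidase, at 2.07 and 0.28. Of the 6 genes below the minimum, Kit and Fcer1a, named after their values were seen, had counting intervals that include 0. Of 4 NK cell markers past the minimum, 3 were more than 2-fold lower, with Gzma at 6.57 and 2.96 and Nkg7 at 3.29 and 0.96. Of 4 dendritic cell markers, 2 were more than 2-fold lower, while the most abundant of that list, Bst2, was at 14.7 and 13.3 and Itgax at 3.23 and 1.61. Of all genes compared, 3.57% were more than 2-fold lower with SJMHE1. Prss34, Cpa3 and Nkg7 met the FPKM minimum only with PBS, where they were higher. So did Ncr1, Siglech and Flt3, named after their values were seen.

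All 9 erythroid markers had counting intervals above 0, against 31.0% of all genes, and 1 was more than 2-fold higher, against 2.43%. This was Epor, the erythropoietin receptor, named after its values were seen, at an FPKM of 0.84 with PBS and 2.02 with SJMHE1. Epor met the FPKM minimum only with SJMHE1, where it was higher. The globin genes were the most abundant of the list, with Hbb-bs at an FPKM of 49.2 with PBS and 62.3 with SJMHE1 and Hba-a1 at 42.2 and 49.9. The median log2 ratio of the erythroid list was 0.62. No platelet marker met the FPKM minimum, and that list summed to 1.10 with PBS and 1.13 with SJMHE1, with Gp9 at 0.50 in both and Itga2b at 0.50 and 0.42.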
